A study of Homo sapiens with 12 samples.

Results

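The STEAP metalloreductase family was described in LNCaP cells through its 4 genes, STEAP1, STEAP2, STEAP3 and STEAP4, out of 34643 genes listed in the deposited table. The 4 genes were chosen by family name, with results of these libraries already known, so their levels and differences are given as a description and without a p-value. RNA-seq covered 12 libraries in 4 groups of 3: shScramble DHT−, shScramble DHT+, shTMEFF2 DHT− and shTMEFF2 DHT+. LNCaP is an established androgen-sensitive prostate cancer line. All cells carried a pLKO.1-puro lentivirus that expressed either a scrambled shRNA or one against TMEFF2 from the U6 promoter, had been through puromycin selection, and were used about 2.5 weeks after transduction (17 days in the series description). In every group the medium was replaced by 10% charcoal-stripped serum for 24 h to deplete androgens. The androgen dihydrotestosterone (DHT) at 10 nM, or ethanol vehicle in the DHT− groups, was then present for a further 24 h. The 3 libraries of a group came from separate treatments and extractions on cells of 2 transductions, and which library belongs to which transduction was not given in the sources used here, so p-values measure the spread among these treatments. The hairpin carried by the shTMEFF2 libraries was likewise not given there.

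STEAP proteins are membrane metalloreductases that pass electrons across a membrane to ferric iron and cupric copper. STEAP2, STEAP3 and STEAP4 carry a cytosolic NADPH-dependent oxidoreductase domain in front of the heme-binding membrane part, whereas STEAP1 lacks it. STEAP3 is the ferrireductase of the transferrin cycle in endosomes, STEAP1, a cell surface antigen, and STEAP2 are known for high expression in prostate epithelium and prostate cancer, and STEAP4 (also called STAMP2) has been described as androgen-induced and as a link between nutrients and inflammation in fat and liver.

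STEAP1, STEAP2 and STEAP4 lie on chromosome 7 and STEAP3 on chromosome 2 (GRCh38, GENCODE). STEAP1 (90154456 to 90164829, plus strand) is followed after 2760 bases by STEAP2 (90167590 to 90238137, plus strand). The lowest coordinate of STEAP4 (88270892 to 88306894, minus strand) lies 1.88 Mb from that of STEAP1. STEAP3 (chromosome 2, 119223831 to 119265652, plus strand) stands alone. A further relative, STEAP1B, is on the minus strand of chromosome 7 (22419444 to 22727613) and is not one of the 4 genes, but it matters for how reads were assigned to STEAP1. An antisense gene overlaps each of the 4 genes on the other strand (STEAP2-AS1 for STEAP1 and STEAP2, STEAP3-AS1 for STEAP3 and an unnamed one for STEAP4). None of these was matched to a row of the table, so reads from them are uncertain in the counts of the 4 genes.

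The 250 bases before the RefSeq start of each gene are shown because STEAP4 responded to DHT very differently from the other genes, and because the STEAP1 and STEAP1B promoters show how alike that pair is. All are written 5′ to 3′ on the strand of the gene, from the RefSeq promoter table of GRCh38.p14, and each matched the GRCh38 genome at its coordinates. STEAP2 has 2 RefSeq starts, and the first is shown. Both of these starts lie inside the GENCODE span of STEAP2 given above, not at its lower end. In the first 3 lines below, capitals mark the GC box, GGGCGG or its reverse complement CCGCCC. In the last 2 lines, capitals mark the 6 of 250 positions at which STEAP1 and STEAP1B differ (97.6% identity), and neither of these holds any of the motifs searched.
STEAP4, chr7:88306895-88307144, minus strand: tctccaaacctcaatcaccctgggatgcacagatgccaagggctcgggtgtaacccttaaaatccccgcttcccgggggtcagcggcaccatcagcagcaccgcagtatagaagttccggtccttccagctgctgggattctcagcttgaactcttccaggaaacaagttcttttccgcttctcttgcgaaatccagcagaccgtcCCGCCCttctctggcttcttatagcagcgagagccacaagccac
STEAP2, chr7:90211490-90211739, plus strand: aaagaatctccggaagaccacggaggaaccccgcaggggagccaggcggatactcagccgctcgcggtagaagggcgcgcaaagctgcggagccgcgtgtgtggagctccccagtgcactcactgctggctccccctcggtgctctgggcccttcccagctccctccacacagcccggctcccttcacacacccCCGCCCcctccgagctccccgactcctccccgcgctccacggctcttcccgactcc
STEAP3, chr2:119223584-119223833, plus strand: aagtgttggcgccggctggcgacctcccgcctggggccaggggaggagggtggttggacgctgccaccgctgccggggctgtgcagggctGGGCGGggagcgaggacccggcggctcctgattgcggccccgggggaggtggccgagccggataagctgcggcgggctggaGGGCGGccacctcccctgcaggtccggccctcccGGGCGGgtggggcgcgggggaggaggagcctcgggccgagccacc
STEAP1, chr7:90154219-90154468, plus strand: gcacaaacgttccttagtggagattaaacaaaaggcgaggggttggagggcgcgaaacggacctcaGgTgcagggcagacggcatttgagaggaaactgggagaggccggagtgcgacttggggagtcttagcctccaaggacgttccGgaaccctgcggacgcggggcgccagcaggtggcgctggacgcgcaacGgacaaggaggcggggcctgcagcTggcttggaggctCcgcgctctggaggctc
STEAP1B, chr7:22500189-22500438, minus strand: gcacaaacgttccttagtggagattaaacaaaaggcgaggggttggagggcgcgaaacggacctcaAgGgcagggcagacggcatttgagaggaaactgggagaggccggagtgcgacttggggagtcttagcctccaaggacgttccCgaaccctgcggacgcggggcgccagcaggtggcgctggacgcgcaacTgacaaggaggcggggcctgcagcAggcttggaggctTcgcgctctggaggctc

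Letter searches on both strands found 1 GC box before STEAP4, 1 before the first start of STEAP2 and 3 before STEAP3, against at least 1 in 42.6% of the 35116 promoters in the table. The TATA box (TATAAA or TTTATA, 10.7% of promoters) and the CCAAT box (CCAAT or ATTGG, 32.0%) were found only before the second STEAP2 start, with 1 and 2 matches. The G+C content of the windows shown was 55.6% for STEAP4, 64.4% for STEAP1, 69.6% for STEAP2 and 78.4% for STEAP3, against a median of 58.0% over all promoters. Apart from STEAP1 and STEAP1B, the 2 starts of STEAP2 included, any pair of these windows matched at 20.4% to 32.0% of aligned positions without gaps.

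Library totals were 19450866 to 22612046 estimated counts (median 21194622), each the sum of 2 deposited columns per library. Levels are given as CPM, the count scaled by the TMM-adjusted total of the library, and 15419 genes passed the filter on low counts, all 4 STEAP genes among them. TMEFF2, the gene targeted by the shRNA, had a mean of 84.97 ± 15.95 CPM (SD, n = 3) in shScramble DHT−, 153 ± 31.4 in shScramble DHT+, 63.2 ± 21.7 in shTMEFF2 DHT− and 116 ± 26.01 in shTMEFF2 DHT+. The shTMEFF2 libraries were lower on average than shScramble at both DHT levels, but the groups overlapped, and the difference did not pass (log2 fold change −0.43, adjusted p = 0.503 without DHT and −0.41, adjusted p = 0.304 with DHT, edgeR quasi-likelihood test). The knockdown was therefore not resolved in these RNA-seq counts, and the groups are called by their labels throughout. The paper reports silencing of TMEFF2 by shRNA in LNCaP cells, for which it shows Western blots and TMEFF2 mRNA levels. The luminal prostate markers KLK3, FOLH1, HOXB13, KRT8 and KRT18 were all present, at medians of 360 to 1996 CPM. Of the 10 markers of basal, stromal, endothelial and blood cells, KRT5 was at 0 in every library, CD3E, TP63, DCN, LUM and COL1A2 did not exceed 0.625 CPM in any library, KRT14 and PECAM1 reached 1.46 and 1.63 CPM, and only PTPRC (3.15 to 7.74 CPM) and VWF (11.8 to 28.3 CPM) were higher. The summed level of the 2 leukocyte markers was 3.20 to 3.58 CPM in shScramble DHT+ and 4.23 to 7.74 CPM across the other groups, and the summed level of the 2 endothelial markers was 13.2 to 14.6 CPM against 15.4 to 29.5 CPM. The 3 stromal markers summed to 0.20 to 0.39 CPM in shScramble DHT+ and 0.59 to 1.30 CPM in the other groups, and the 3 basal markers to 0.88 to 1.77 CPM and at most 0.50 CPM. The part of these markers in the results below was not tested.

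Per kilobase of the canonical GENCODE transcript, STEAP1 and STEAP2 were the abundant members and STEAP3 and STEAP4 the scarce ones. STEAP1 stood at 303 to 373 CPM per kb as group means and STEAP2 at 164 to 232, while STEAP3 stood at 3.78 to 4.32 CPM per kb. STEAP4 was at 0.11 to 0.17 CPM per kb in 3 groups and at 5.22 ± 1.01 in shScramble DHT+, where STEAP3 was at 3.81 ± 0.51 and the intervals of 1 SD overlapped. That nearness depends on the transcripts taken. With the shortest annotated coding transcripts, STEAP4 would be at 22.5 and STEAP3 at 8.68 CPM per kb in shScramble DHT+. The order of STEAP1 over STEAP2 depends on the transcript taken: the STEAP2 canonical transcript is 6984 bases long, and with its shortest annotated coding transcript of 579 bases STEAP2 would be at 1974 to 2800 CPM per kb. In bulk RNA, a change in the number of cells that express a gene cannot be told apart from a change in the RNA per cell.

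STEAP1, the member without the oxidoreductase domain, was a little lower with DHT and lower in shTMEFF2 than in shScramble, within a narrow range. The libraries of shScramble DHT− gave 444, 438 and 481 CPM, those of shScramble DHT+ 432, 415 and 435, those of shTMEFF2 DHT− 417, 416 and 423, and those of shTMEFF2 DHT+ 369, 355 and 385. All 3 libraries with DHT lay below all 3 without it in each line. The DHT difference was −0.09 ± 0.05 (log2 fold change ± SE) in shScramble (−0.16 with library size only in place of TMM) and −0.18 ± 0.05 in shTMEFF2. The difference of shTMEFF2 from shScramble was −0.12 ± 0.05 without DHT and −0.21 ± 0.05 with it. Without replicate 3 of shScramble DHT−, the highest library, the DHT difference in shScramble was −0.043 and the difference between the lines without DHT −0.070. In the order of group means, 454 ± 22.9, 428 ± 10.6, 419 ± 3.89 and 370 ± 15.3 CPM (SD, n = 3), shScramble DHT+ and shTMEFF2 DHT− were neighbours whose libraries overlapped.

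Part of the STEAP1 sequence is shared. Of the 1189 stretches of 31 bases in its canonical transcript, 432 (36.3%) also occur in transcripts of STEAP1B, so reads over that part could be assigned to either gene, and values of both are uncertain to that extent. STEAP1B was at 0.60 to 1.11 CPM as group means, with 9 to 30 counts a library, against 7775 to 9820 counts a library for STEAP1. With both genes summed into 1, the STEAP1 differences lay at −0.09, −0.18, −0.12 and −0.21, in the order given above.

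STEAP2, a full-length ferrireductase and cupric reductase, had the same direction in every comparison and a larger size. The libraries of shScramble DHT− gave 1644, 1526 and 1693 CPM and those of shScramble DHT+ 1403, 1290 and 1351. The libraries of shTMEFF2 DHT− gave 1390, 1405 and 1442 CPM and those of shTMEFF2 DHT+ 1153, 1109 and 1167. No library with DHT reached the lowest library without it in the same line, and the shTMEFF2 libraries lay below the shScramble libraries at each DHT level. Group means were 1621 ± 85.7, 1348 ± 56.6, 1412 ± 26.8 and 1143 ± 30.2 CPM in that order. DHT+ was 16.8% below DHT− in shScramble (log2 fold change −0.27 ± 0.05) and 19.0% below in shTMEFF2 (−0.30 ± 0.05). Libraries labelled shTMEFF2 were 12.9% below shScramble without DHT (−0.20 ± 0.05) and 15.2% below with DHT (−0.24 ± 0.05). By level, shTMEFF2 DHT− came between the shScramble groups, and its libraries overlapped those of shScramble DHT+.

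The count of STEAP2 divided by that of STEAP1 was 3.48 to 3.70 in shScramble DHT−, 3.10 to 3.25 in shScramble DHT+, 3.33 to 3.41 in shTMEFF2 DHT− and 3.03 to 3.12 in shTMEFF2 DHT+. These are ratios of counts from transcripts of unequal length, and only their change between groups can be read. Within each line the ratio was lower in all 3 libraries with DHT than in all 3 without it, so STEAP2 was the more lowered of these chromosome 7 neighbours. For neither gene was a difference between the lines in the DHT response resolved: the shTMEFF2 difference minus the shScramble difference was −0.09 ± 0.07 for STEAP1 and −0.04 ± 0.07 for STEAP2, and the latter turned to 0.03 with library size only in place of TMM and to 0.003 without replicate 2 of shScramble DHT−.

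STEAP3, the ferrireductase of the transferrin cycle, was low, with group means of 16.1 to 18.4 CPM. Its libraries gave 15.4, 16.3 and 16.6 CPM in shScramble DHT−, 15.7, 14.4 and 18.6 in shScramble DHT+, 16.2, 14.96 and 17.7 in shTMEFF2 DHT−, and 17.3, 19.4 and 18.5 in shTMEFF2 DHT+. The groups overlapped in all 4 comparisons. The DHT difference was 0.01 ± 0.11 in shScramble and 0.18 ± 0.11 in shTMEFF2, and the difference of shTMEFF2 from shScramble was 0.02 ± 0.11 without DHT and 0.18 ± 0.11 with it. With 295 to 426 counts a library, the DHT difference in shTMEFF2 was 0.34 in the first deposited column of each library alone and −0.01 in the second alone, and in shScramble it was 0.11 and −0.10.

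STEAP4 was the member that stood apart. The libraries of shScramble DHT− gave 1.54, 1.34 and 1.13 CPM, and those of shScramble DHT+ gave 42.5, 62.7 and 51.2 CPM. The libraries of shTMEFF2 DHT− gave 0.91, 0.97 and 1.49 CPM, and those of shTMEFF2 DHT+ gave 0.93, 1.69 and 2.36 CPM. STEAP4 was thus high in the 3 shScramble DHT+ libraries alone, and the other 9 libraries did not exceed 2.36 CPM. The estimated counts behind these levels were 843 to 1284 in shScramble DHT+ and 19 to 53 in the other groups, so that small differences among the latter are not resolved.

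With DHT, STEAP4 was 38.8-fold higher in shScramble (log2 fold change 5.28 ± 0.27) and 1.48-fold higher in shTMEFF2 (0.56 ± 0.32), where the groups overlapped. Without DHT, shTMEFF2 differed from shScramble by −0.25 ± 0.34 and the groups overlapped. With DHT, shTMEFF2 was 31.2-fold lower than shScramble (−4.97 ± 0.26), without overlap. The DHT difference in shTMEFF2 minus that in shScramble was −4.72 ± 0.43 on the log2 scale. Among the 15419 genes, the STEAP4 difference ranked 14 from the highest for DHT in shScramble and 976 from the highest for DHT in shTMEFF2. It ranked 4 from the lowest for shTMEFF2 against shScramble with DHT and 10 from the lowest for the difference between the DHT responses. By level, the groups after shScramble DHT+ were shTMEFF2 DHT+ (1.66 ± 0.72 CPM), shScramble DHT− (1.33 ± 0.21) and shTMEFF2 DHT− (1.12 ± 0.31), and each overlapped its neighbour. The small DHT difference in shTMEFF2 rested on single libraries, at 0.23 without replicate 3 and 0.85 without replicate 1 of shTMEFF2 DHT+.

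**Figure D1:**
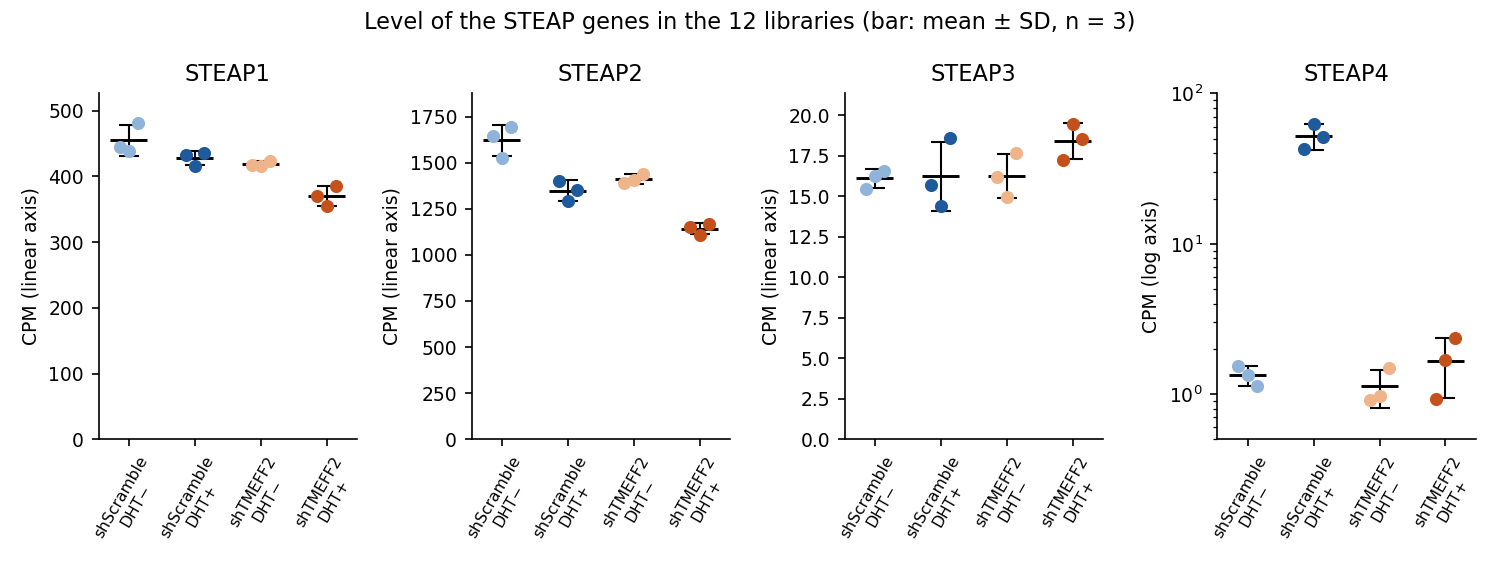
CPM of each STEAP gene (y axis) in the 12 libraries by group (x axis); points are libraries and bars the mean ± SD of 3. STEAP1, STEAP2 and STEAP3 are on linear axes from 0 and STEAP4 is on a log axis, where the shScramble DHT+ libraries sit at 42.5 to 62.7 CPM and all others at or below 2.36 CPM.

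**Figure D2:**
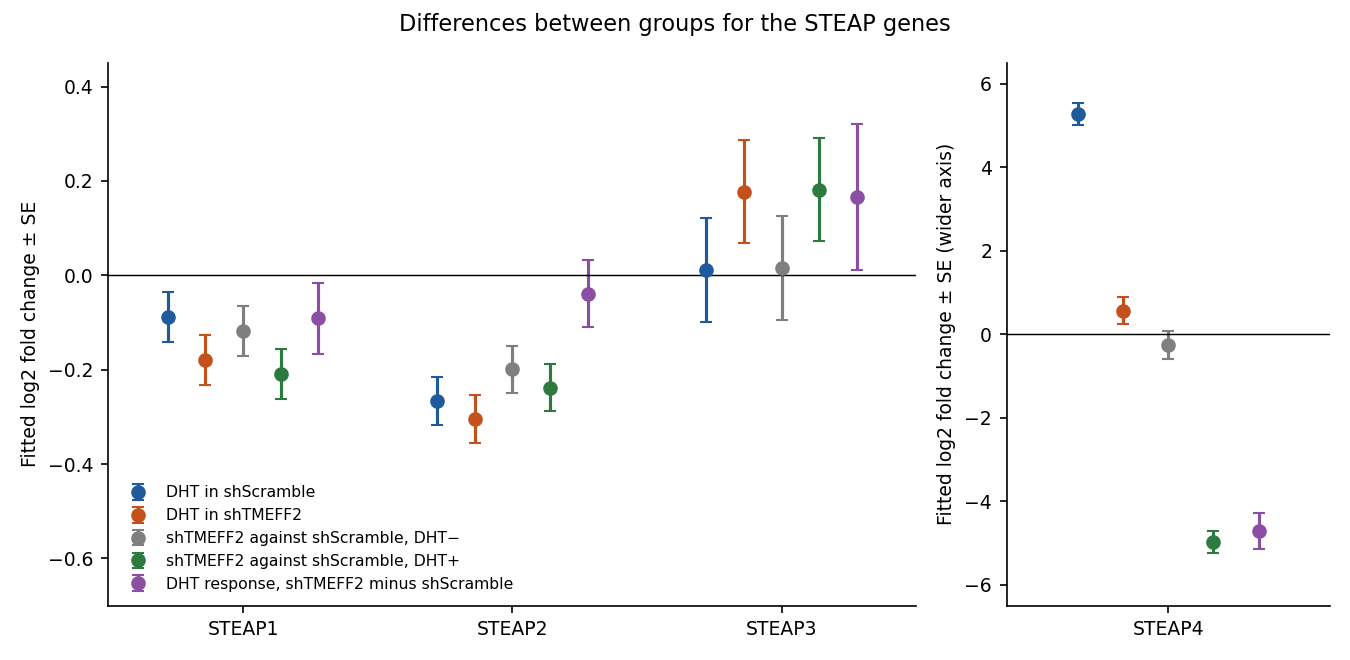
Fitted log2 fold change ± SE (y axis) of each STEAP gene in the 4 comparisons of groups and in the difference between the DHT responses, with a wider axis for STEAP4. STEAP1 and STEAP2 are below 0 throughout (the STEAP2 difference between the responses is 0.03 with library size only and 0.003 without replicate 2 of shScramble DHT−), STEAP3 is between 0.01 and 0.18, and STEAP4 runs from 5.28 for DHT in shScramble to −4.97 for shTMEFF2 against shScramble with DHT.

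A gene was called where its fold change was at least 1.5 and its adjusted p at most 0.05, and for the difference between the DHT responses on the adjusted p alone. Of the 4 genes, STEAP4 was called for DHT in shScramble, against 11.9% of all genes tested, for shTMEFF2 against shScramble with DHT, against 6.77%, and for the difference between the DHT responses, against 4.94%. The other members were called in none of the comparisons, and no member was called for DHT in shTMEFF2 (4.88% of all genes) or for shTMEFF2 against shScramble without DHT (0.571%). The groups did not overlap for 3 of 4 genes for DHT in shScramble (41.8% of all genes), for 2 of 4 for DHT in shTMEFF2 (31.3%), for 2 of 4 for shTMEFF2 against shScramble without DHT (18.5%) and for 3 of 4 with DHT (32.5%). Nothing is read from these counts, since the genes were chosen with such results known.

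To place each gene among all others, the 5 nearest patterns were taken as those with the smallest root mean square difference in centred log2 CPM over the 12 libraries, among 11155 genes of at least 5 CPM on average. For STEAP4 these were LAMA1, a laminin chain (0.89), FKBP5, an immunophilin co-chaperone (0.95), AKAP12, an anchor of protein kinase A (1.03), MAF, a transcription factor (1.05), and CSGALNACT1, an enzyme that starts chondroitin sulfate chains (1.06). The measure for a flat pattern would have been 2.28, so even the nearest pattern is some way off. All 5 were higher with DHT in shScramble, at log2 fold changes of 2.87 to 4.45, which is less than the 5.28 of STEAP4. A rise there follows from choosing patterns near STEAP4 over the same libraries and is not a separate result. In shTMEFF2 their DHT differences ran from −0.05 for MAF to 2.18 for LAMA1. FKBP5 went from 63.5 to 661 CPM with DHT in shScramble and from 60.7 to 112 CPM in shTMEFF2, so it kept a log2 difference of 0.89 ± 0.15 where that of STEAP4 was 0.56 ± 0.32. CSGALNACT1 was nearer to STEAP4 in this respect, at 0.50 ± 0.19. MAF was at 11.1 CPM without and 80.9 CPM with DHT in shScramble, and at 11.2 and 10.8 CPM in shTMEFF2. AKAP12 varied widely within groups, from 11.3 to 56.8 CPM in shScramble DHT+.

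**Figure D3:**
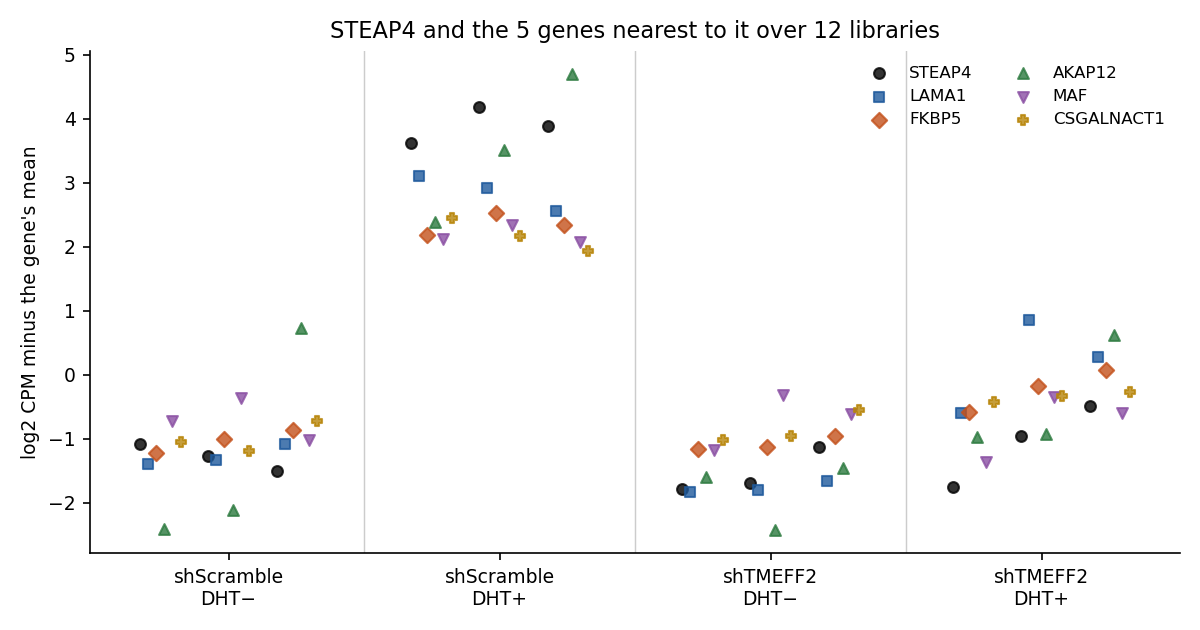
Log2 CPM minus the mean of the gene over 12 libraries (y axis) for STEAP4 and the 5 genes with the nearest pattern, by group (x axis); each point is a library. All 6 genes are highest in shScramble DHT+, and STEAP4, MAF and CSGALNACT1 have the smallest DHT differences in shTMEFF2 (0.56, −0.05 and 0.50). The 5 genes were chosen for nearness to STEAP4 over these libraries, so their high level in shScramble DHT+ follows from that choice.

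The nearest patterns of the other members had smaller differences, because the levels of these members moved little. The measure for a flat pattern would have been 0.12 for STEAP1, 0.19 for STEAP2 and 0.13 for STEAP3. Set against that, the nearest pattern of STEAP2 was about as close as that of STEAP4, and those of STEAP1 and STEAP3 were less close. For STEAP1 they were KIAA0232, PIGP, MTFR1L, BAZ2A and RHOQ, at 0.058 to 0.062 against a median of 0.20 over all genes. For STEAP2 they were ZBTB4, ENO3, PAN2, RNF214 and RP11-465B22.3 at 0.069 to 0.077, and for STEAP3 STRN4, RCC2, TKT, NUP62 and RPA1 at 0.062 to 0.076. ENO3, the muscle enolase, for example gave 36.3, 28.9, 29.6 and 25.8 CPM in the order of groups used above, and TKT, the transketolase of the pentose phosphate pathway, gave 318, 342, 349 and 369 CPM.

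The gene lists below and their rules were chosen with earlier results of these data known. Their p-values are therefore a description and not independent evidence. Of 35 other genes of iron uptake, storage, export and mitochondrial use, 32 passed the filter. With DHT in shScramble 1 was called higher and 1 lower, a share below the background already given, with a median log2 fold change of −0.10 against −0.01 over all genes. SLC25A37 (mitoferrin-1, which carries iron into mitochondria) rose from 158, 125 and 143 CPM to 247, 225 and 216 CPM (log2 fold change 0.69 ± 0.08, adjusted p = 6.5e-05). SLC40A1 (ferroportin, the iron exporter) fell from 3.08, 3.13 and 3.28 CPM to 2.02, 1.37 and 2.401 CPM (−0.71 ± 0.23, adjusted p = 0.0352), and it was called in 11 of 20 alternatives. In shTMEFF2, where the edgeR test called 0 of the 32, 11 were at an unadjusted p under 0.05, and DESeq2 and limma called 0. SLC25A37 was at 0.24 ± 0.08 there (adjusted p = 0.0781) and SLC40A1 at −0.49 ± 0.22 (adjusted p = 0.173). With no limit on fold change, adjusted p was at most 0.05 for 9 of the 32 with DHT in shScramble (2 higher, 7 lower). In shTMEFF2 it was so for 3 (1 higher, 2 lower). The share of all genes was not computed at an unadjusted p under 0.05 or without the fold limit. Nothing is therefore read from counts of these kinds here or below.

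The transferrin receptor and the ferritin chains shifted by less than 1.5-fold, in opposite directions and by nearly equal amounts in both lines. TFRC, which brings transferrin-bound iron to the endosome where STEAP3 works, was higher with DHT by 0.36 ± 0.09 in shScramble (adjusted p = 0.00947) and by 0.38 ± 0.09 in shTMEFF2 (adjusted p = 0.0149). FTH1, the ferritin heavy chain, changed by −0.33 ± 0.07 (adjusted p = 0.00382) and −0.30 ± 0.07 (adjusted p = 0.0149). FTL, the light chain, changed by −0.39 ± 0.08 in both lines (adjusted p = 0.00245 and 0.0066). The differences between the lines in these DHT responses were 0.02 ± 0.12, 0.03 ± 0.10 and 0.00 ± 0.11. SLC11A2, the endosomal iron transporter DMT1, was at 0.20 ± 0.09 in shScramble (adjusted p = 0.115) and 0.06 ± 0.09 in shTMEFF2 (adjusted p = 0.711).

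Between the lines without DHT the edgeR test called 0 of the 32 iron genes, with 6 at an unadjusted p under 0.05 and with 1 called by DESeq2 and 0 by limma. With DHT, 1 of the 32 was called higher and 1 lower in shTMEFF2, beside 6.77% of all genes. With no limit on fold change, adjusted p was at most 0.05 for 8 of the 32 in this comparison (5 higher, 3 lower). SLC25A37 fell by 0.70 (SE 0.08, adjusted p = 0.000114), and HEPH, a copper-dependent ferroxidase, rose by 2.78 (SE 0.78, adjusted p = 0.0292). HEPH was near the limit of detection, at 0.25, 0.34 and 0.10 CPM in shScramble DHT+ and 2.69, 1.19 and 1.02 CPM in shTMEFF2 DHT+, and was called in 13 of 20 alternatives. Without DHT, HEPH was also higher in shTMEFF2, by 2.40 (SE 0.69), with an adjusted p above 0.05. For HEPH the difference between the DHT responses was 0.38 ± 1.04, so a dependence on DHT was not resolved. FTH1 was higher in shTMEFF2 with DHT by 0.27 ± 0.07 (adjusted p = 0.0187). Without DHT it was higher by 0.24 ± 0.07, with an adjusted p above 0.05. SLC25A37 was the one gene of the list whose DHT response differed between the lines (−0.45 ± 0.12, adjusted p = 0.0486), and that call held in 6 of 20 alternatives.

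Of 13 other metal and quinone reductases and related oxidases, 12 passed the filter. CYB561A3, a lysosomal ferrireductase of the cytochrome b561 family, fell with DHT in shScramble from 83.4, 94.2 and 75.6 CPM to 50.2, 52.2 and 53.4 CPM (−0.70 ± 0.08, adjusted p = 5.35e-05), and was the only gene of the list called there. In shTMEFF2 its difference was −0.39 ± 0.08 (adjusted p = 0.00911), short of 1.5-fold, and edgeR called 0 of the 12, with 3 at an unadjusted p under 0.05 and 0 called by DESeq2 and by limma. CYB561, the founding member of that family, had a DHT response that differed between the lines (−0.50 ± 0.11, adjusted p = 0.0208): it was at 191, 209 and 211 CPM without and 310, 284 and 306 CPM with DHT in shScramble, and at 189, 212 and 215 and then 192, 226 and 224 CPM in shTMEFF2. CYBRD1, the duodenal ferric reductase, did not exceed 1.15 CPM in any library, and its DHT difference was 0.01 ± 0.37 in shScramble (adjusted p = 0.994) and −0.71 ± 0.35 in shTMEFF2 (adjusted p = 0.217). Between the lines 0 of the 12 were called without DHT and 0 with DHT by edgeR, DESeq2 and limma alike. At an unadjusted p under 0.05 there were 2 and 5. With no limit on fold change, adjusted p was at most 0.05 for 1 without DHT and 3 with DHT (1 higher, 2 lower). For the DHT differences it was so for 4 in shScramble (3 higher, 1 lower) and 1 in shTMEFF2.

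All 11 copper uptake and delivery genes passed the filter and 0 were called by edgeR, DESeq2 or limma in any of the 5 comparisons. Genes at an unadjusted p under 0.05 numbered 6 for DHT in shScramble and 2 for DHT in shTMEFF2. Between the lines they numbered 3 without and 5 with DHT, and for the difference between the DHT responses 3. With no limit on fold change, adjusted p was at most 0.05 for 6 of the 11 with DHT in shScramble (4 higher, 2 lower). It was so for 1 with DHT in shTMEFF2, and between the lines for 0 without and 3 with DHT. SLC31A1 (CTR1, which imports the cuprous copper that a reductase supplies) was at 114, 119 and 128 CPM without and 175, 172 and 175 CPM with DHT in shScramble (0.53 ± 0.07, adjusted p = 9.74e-05, a 1.45-fold change). In shTMEFF2 its difference was 0.25 ± 0.07 (adjusted p = 0.0301), and the difference between the responses was −0.28 ± 0.10 (adjusted p = 0.128). SLC31A2, its CTR2 relative, lay nearest the 1.5-fold limit in shTMEFF2 against shScramble with DHT, at 5.55 to 7.45 CPM in shScramble and 3.70 to 4.52 CPM in shTMEFF2, without overlap (−0.58 ± 0.16, adjusted p = 0.0244). It was called there without replicates 1 or 2 of shScramble DHT+ or replicates 2 or 3 of shTMEFF2 DHT+.

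**Figure D4:**
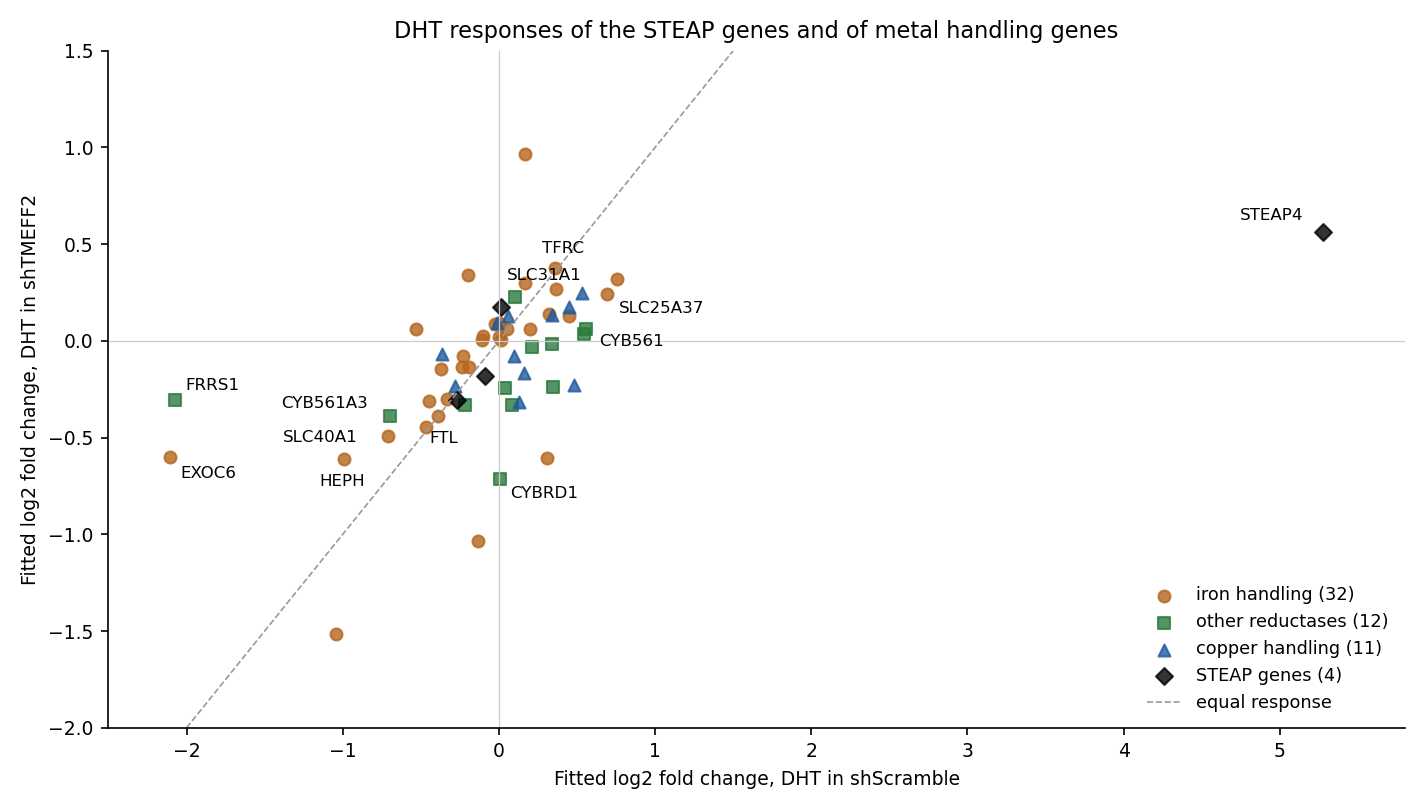
Fitted log2 fold change with DHT in shScramble (x axis) against that in shTMEFF2 (y axis) for the tested iron handling genes (32), other reductases (12), copper handling genes (11) and the 4 STEAP genes; the dashed line marks equal responses. STEAP4 lies at 5.28 and 0.56, far to the right of every listed metal handling gene, and FRRS1 and EXOC6 on the left were not called.

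The annotation places 52 genes within 500 kb of a member. The table lists 25 of them and 13 passed the filter, 4 beside STEAP1 and STEAP2, 5 beside STEAP3 and 4 beside STEAP4. With DHT in shScramble 4 of the 13 were called higher and 2 lower, beside 11.9% of all genes, and the median log2 fold change of the 13 was −0.03. Beside STEAP3, itself at 0.01 in this comparison, DBI (acyl-CoA binding protein, 101 kb away) rose from 144, 143 and 133 CPM to 505, 534 and 451 CPM (1.83 ± 0.09, adjusted p = 4.93e-08). C2orf76, between STEAP3 and DBI at 36.6 kb, rose by 0.94 ± 0.10 (adjusted p = 2.54e-05), and CFAP221, 279 kb away, rose by 1.16 ± 0.27 (adjusted p = 0.00759). Beside STEAP4, DBF4, the activator of the replication kinase CDC7, rose by 0.75 ± 0.15 at 361 kb (adjusted p = 0.00308). ADAM22, a cell surface receptor 68.0 kb from STEAP4, fell by 0.78 (SE 0.15, adjusted p = 0.00197), and CFAP69, 7.04 kb from STEAP2, fell by 0.78 (SE 0.18, adjusted p = 0.00629).

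SRI, which encodes the calcium-binding protein sorcin and is the tested gene closest to STEAP4 at 43.9 kb, was at −0.03 ± 0.07 with DHT in shScramble (adjusted p = 0.816), where STEAP4 was at 5.28. The large STEAP4 difference was thus not shared by the tested genes next to it. In shTMEFF2, DBI rose by 0.73 ± 0.08 (adjusted p = 0.000438) and DBF4 by 0.97 ± 0.15 (adjusted p = 0.00208) with DHT. These were the 2 of 13 neighbours called, beside 4.88% of all genes. Without DHT edgeR, DESeq2 and limma called 0 of the 13 between the lines, with 2 at an unadjusted p under 0.05. With DHT, shTMEFF2 differed from shScramble by −1.03 ± 0.08 for DBI (adjusted p = 8.08e-06), −0.85 ± 0.10 for C2orf76 (adjusted p = 0.000111) and 0.61 ± 0.15 for ADAM22 (adjusted p = 0.0151), which were the 3 of 13 neighbours called, beside 6.77% of all genes. The DHT responses of DBI (−1.10 ± 0.12, adjusted p = 0.000343) and C2orf76 (−0.69 ± 0.14, adjusted p = 0.0155) differed between the lines, 2 of 13 beside 4.94% of all genes.

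**Figure D5:**
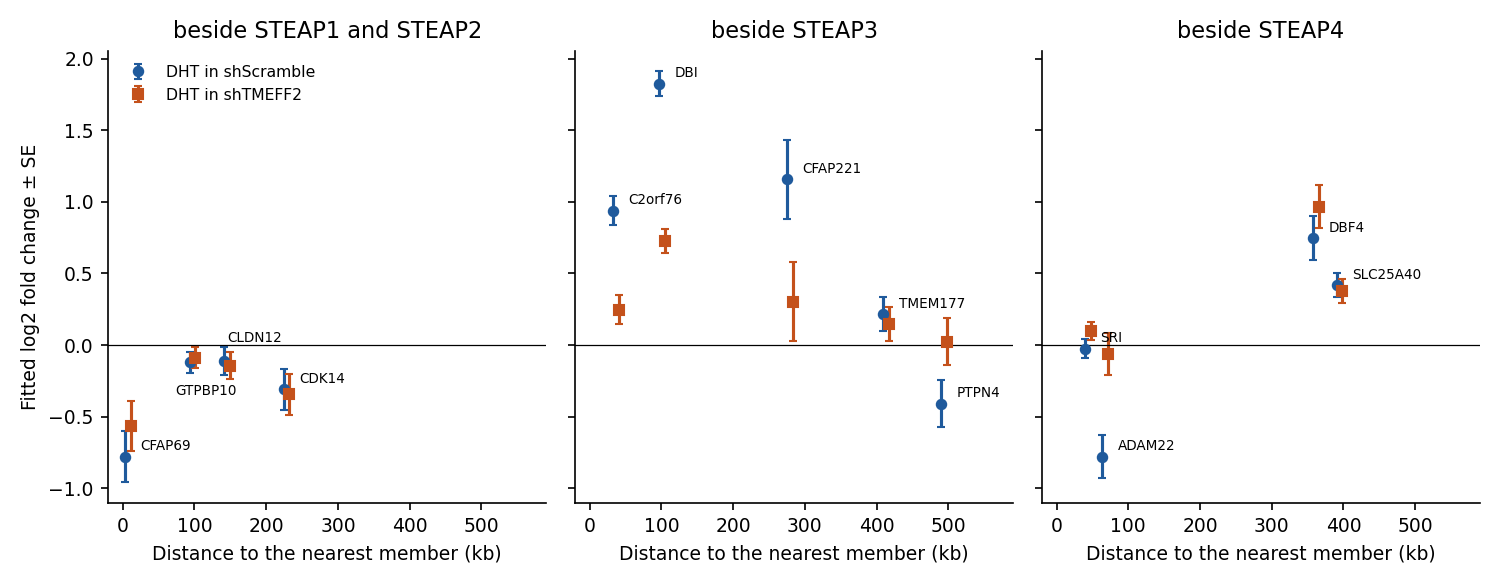
Fitted log2 fold change ± SE with DHT (y axis) of the 13 tested genes within 500 kb of a STEAP gene against the distance to the nearest one in kb (x axis), for shScramble and shTMEFF2. The 3 genes called beside STEAP3, C2orf76, DBI and CFAP221, have larger values in shScramble than in shTMEFF2 (adjusted p = 0.276 for the difference for CFAP221), and the genes beside STEAP4 stay between −0.78 and 0.97.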

How the data were processed

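The authors removed contaminant reads, trimmed with Trimmomatic, quantified 75 bp paired reads with kallisto 0.42.3 on GRCh38 and deposited estimated counts per gene (length-scaled, as the name of the deposited table says, with 2 columns per library in its header), so counts from unequal transcripts are not on a per-length scale. The 2 columns of a library were summed and rounded, and the number of columns left out was 0. The fit used edgeR 4.0.16 in R 4.3.3: TMM scaling, filterByExpr (minimum count 10, minimum total 15), 1 mean per group over all 12 libraries, and quasi-likelihood tests with Benjamini-Hochberg adjustment over 15419 genes. DESeq2 1.42.0 and limma 3.58.1 (voom) were alternatives. The fit was tested on simulated data. Members, lists and rules were chosen with earlier results of these data known, so members have no p-value. For the same reason the p-values of list genes and neighbours are a description and not independent evidence. Named genes were the members, TMEFF2, called genes of the lists and neighbours, TFRC, FTH1, FTL, SLC11A2, SLC40A1, CYBRD1, SLC31A1, and the 5 nearest patterns per member. SRI, FRRS1, EXOC6, SLC31A2 and the examples ENO3 and TKT were picked after their values were seen. Log2 CPM for nearest patterns used a prior count of 2. A few luminal markers and a motif search are not reported here. Gene positions are from GENCODE and promoters from RefSeq.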

Additional observations from a re-analysis of the deposited data

Results flagged for a closer look

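Only the 4 members, TMEFF2, the tested list genes (32 iron, 12 reductase, 11 copper) and the 13 tested neighbours were searched here. Among these, the DHT responses of 5 genes differed between the lines, as shTMEFF2 minus shScramble on the log2 scale. Over all genes tested, 4.94% passed the same limit on the adjusted p. Nothing is read from the count of 5, since members and lists were chosen with earlier results known. STEAP4 differed by −4.717, given as a description because it was chosen with this result known. For genes outside the family the edgeR interaction test gave −1.099 for DBI (adjusted p = 0.000343), −0.694 for C2orf76 (adjusted p = 0.0155), −0.498 for CYB561 (adjusted p = 0.0208) and −0.449 for SLC25A37 (adjusted p = 0.0486). C2orf76 and DBI are neighbours on chromosome 2, beside STEAP3, whose own value was 0.17 ± 0.16. Their adjusted p ranged over the alternatives from 7.74e-15 to 0.0017 for DBI, 0.000928 to 0.074 for C2orf76, 0.00107 to 0.0581 for CYB561 and 0.0089 to 0.181 for SLC25A37. Groups of 3 libraries were too small for a search for single outlying libraries.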

How the results depend on the processing

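Of 421 values of the 4 genes under the alternatives, 413 moved by less than the spread between replicates. The 8 others were, with library size only in place of TMM, −0.158 and −0.336 for STEAP1 and STEAP2 with DHT in shScramble, −0.151 and −0.179 for shTMEFF2 against shScramble with DHT, and −0.022 and 0.03 for the difference between the DHT responses, and, for STEAP3 with DHT in shTMEFF2, 0.335 and −0.006 with column 1 or column 2 alone. STEAP4 stayed between 5.13 and 5.42 for DHT in shScramble and between −5.30 and −4.68 for shTMEFF2 against shScramble with DHT.

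Counts of called iron genes were 1 for DHT in shScramble with a mean above 5 CPM only, no filter, the 6 libraries alone or either column alone, 1 for shTMEFF2 against shScramble without DHT with DESeq2, no filter or the replicate block, 1 with DHT with limma-voom or column 1 alone, and 0 for the difference of responses above 5 CPM or with column 1 alone. Other reductases called for that difference were 3 with DESeq2, 2 with the replicate block and 0 with column 1 alone. Copper genes called were 1 with either column alone for DHT in shScramble and 1 for the difference of responses with the replicate block, and 1 neighbour was called for the difference with column 1 alone. The DHT effect on TMEFF2 missed the threshold at 0.725 (adjusted p = 0.0608) in shScramble with column 2 alone, and at 0.875, 0.895 and 0.842 in shTMEFF2 with the 6 libraries alone, column 1 alone and column 2 alone. Its difference of responses was −0.053 with column 1 alone. The causes were not tested.

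With single libraries left out, iron calls were 1 to 2 for DHT in shScramble (1 without DHT− replicates 1 or 3 or DHT+ replicates 1 or 2), 0 to 1 in shTMEFF2 (1 without DHT− replicate 1), 1 to 3 for shTMEFF2 against shScramble with DHT (1 without replicate 1 of either line) and 0 to 1 for the difference of responses (1 only without shScramble DHT− replicate 1). Reductase calls were 1 to 3 for DHT in shScramble (3 without DHT+ replicate 2, and 2 without any 1 DHT− replicate), 0 to 1 for shTMEFF2 against shScramble without DHT (1 without shTMEFF2 DHT− replicate 3) and 0 to 3 for the difference of responses (3 without shTMEFF2 DHT+ replicate 2, and 0 without replicate 1 of either shScramble group or shTMEFF2 DHT− replicate 2). Copper calls with DHT were 0 to 1 (1 without shScramble replicates 1 or 2 or shTMEFF2 replicates 2 or 3). The TMEFF2 DHT effect was 0.75 to 1.02 in shScramble and 0.62 to 1.11 in shTMEFF2, and lost its call without 4 of the 6 libraries of each line (replicates 1 and 2 without DHT and replicates 1 and 3 with it). Its difference of responses was −0.231 to 0.254.

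Correlations of same-numbered deviations were −0.002 to 0.169, and the main fit did not pair libraries by replicate number. Whether libraries of the same number share a transduction is not known. With the replicate block, STEAP4 was at 5.26 for DHT in shScramble. Beyond the counts above, the block moved no count of list genes by over 1.5 times. Over all genes, the block raised the calls from 88 to 144 for shTMEFF2 against shScramble without DHT. For the difference of responses they went from 761 to 1120, and they also rose in the other comparisons. What the block took up was not tested. STEAP2 with STEAP2-AS1 summed was not run, because no row was matched to the antisense gene. Counts of 19 to 53 limit STEAP4 outside shScramble DHT+.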
